A study of Mus musculus with 6 samples.

Results

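The nuclear genes of oxidative phosphorylation were followed in RNA from mouse glomeruli, the filtering units of the kidney. Genes were taken by symbol, as those starting Nduf followed by a, b, c, s or v, Sdha to Sdhd, those starting Uqcr, Cyc1, Cycs, those starting Cox4 to Cox8, and those starting Atp5, with pseudogene symbols left out and at least 10 counts in at least 3 libraries. The pattern matched 109 of 57132 gene rows. Of these, 9 had a pseudogene symbol (with -ps) and 5 others fell below the count minimum, leaving 95 genes. They comprised 46 genes for complex I, 4 for complex II, 9 for complex III, cytochrome c (Cycs), 18 for complex IV and 17 for complex V. The symbols also take in 8 complex I assembly factors (Ndufaf1 to Ndufaf8), the supercomplex factor Cox7a2l, Atp5s, and 3 gene copies (Ndufb4c, Ndufs6b and Cox6c2), so not every gene encodes a subunit. The 3 copies are annotated as processed pseudogenes and stayed in because their symbols lack -ps.

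All 6 samples carried floxed Setdb2 alleles and were labelled DKD, for diabetic kidney disease. Cre recombinase was absent in 3 samples (Cre_negative) and present in 3 (Cre_positive). The series' design text places the question on SETDB2, a histone methyltransferase family member, in podocytes, the epithelial cells that wrap the glomerular capillaries. The sources used here do not give the Cre driver, the diabetes model, or the animals' age and sex. The labels number the replicates but do not say that each came from a separate mouse, and a p-value therefore reflects only the spread among these samples, which may be technical.

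Oxidative phosphorylation is carried out in the inner mitochondrial membrane. Complexes I and II feed electrons from NADH and succinate through ubiquinone to complex III, cytochrome c carries them on to complex IV, which reduces oxygen, and complex V uses the proton gradient built along the way to make ATP. Most subunits are encoded in the nucleus and imported, while a small set, including part of the core of complexes I, III and IV, is encoded in mitochondrial DNA. Proximal and distal tubule cells of the kidney are rich in mitochondria.

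Each library held between 53571438 and 58807042 counts. The 95 genes took 1.92%, 2.13% and 1.89% of the counts in the Cre_negative libraries and 1.87%, 1.90% and 1.78% in the Cre_positive libraries. Setdb2 itself was at 9.73, 8.80 and 6.58 CPM (counts scaled to library size with TMM factors) in Cre_negative and at 8.01, 7.79 and 7.29 in Cre_positive, so the groups overlapped (log2 fold change -0.12, SE 0.18, adjusted p = 0.738 by edgeR's quasi-likelihood test). Its total over the gene therefore does not separate the genotypes, and the deleted exons were not analysed here. Fold changes below are Cre_positive over Cre_negative, and an adjusted p is edgeR's quasi-likelihood value after Benjamini-Hochberg correction across every gene tested.

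Most of the 95 genes differed little between genotypes, and the 3 that passed the test were lower in Cre_positive glomeruli. They were Cox6b2, an isoform of a small complex IV subunit known from testis, Cycs, the electron carrier cytochrome c, and Ndufb6, an accessory subunit of the complex I membrane arm. These 3 make up 3.16% of the genes, against 7.55% of all 19927 genes tested. Of all genes, 3.82% were called lower and 3.73% higher. No gene of the 95 was called higher by edgeR, DESeq2 or limma voom, and 1 was higher at an unadjusted p under 0.05, beside 11 lower. At that unadjusted p, 12 of the 95 genes passed, against 23.5% of all genes. The groups did not overlap for 15 genes, or 15.8%, against 29.7% of all genes. Of those 15, 12 were lower and Ndufa4l2, Ndufaf8 and Sdha were higher. In bulk RNA such as this, fewer cells of a type and less RNA per cell cannot be told apart.

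The median log2 fold change over the 95 genes was -0.08, with a range of -1.87 to 0.53. The median over all genes tested was -0.00089. For 81 of the 95 genes, or 85.3%, the 95% interval lay within a fold change of 1.5 in either direction, against 44.4% of all genes. Their median SE on the log2 scale was 0.101, against 0.169 for all genes, at a median average log2 CPM of 6.90 against 3.60. The 14 with wider or more distant intervals included Cycs, Cox6b2, Ndufb6, Atp5g1, Uqcrq and the low isoforms Cox4i2, Cox6a2 and Cox7a1.

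**Figure D1:**
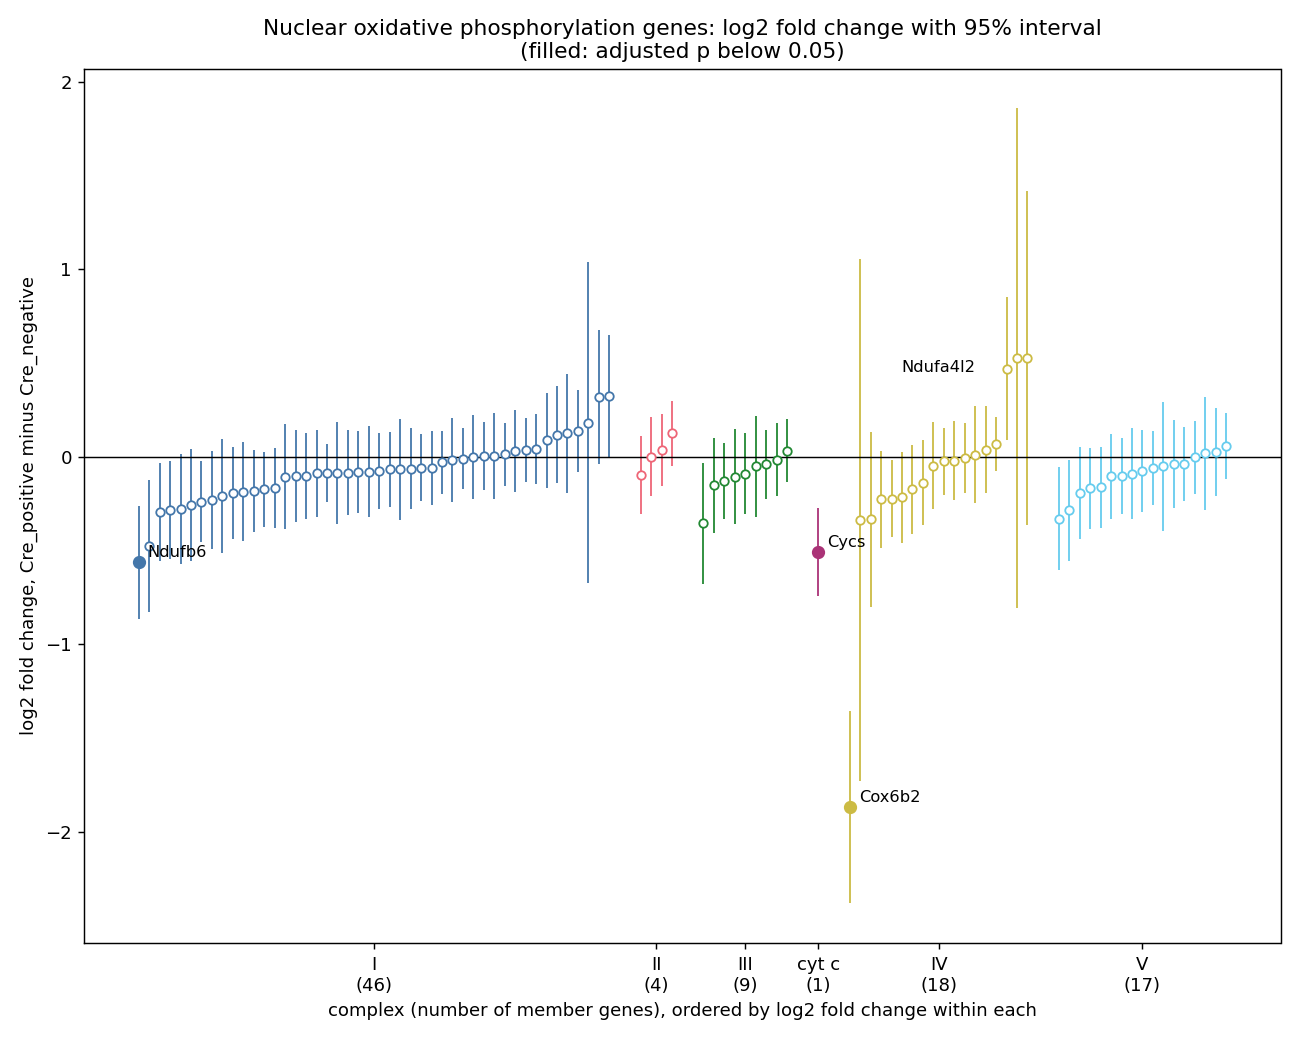
Log2 fold change (y axis, Cre_positive minus Cre_negative) of the 95 genes, ordered within each complex along the x axis, with 95% intervals as bars and filled points for an adjusted p below 0.05. Most points lie close to 0, the 3 filled points lie below it, and Cox6b2 stands lowest at -1.87.

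Log2 fold changes were below 0 for 69 of the 95 genes, against 50.1% of all genes, but 1 library decided that count. Cre_negative replicate 2 was the highest of the 6 libraries for 82 genes, or 86.3%, while it was highest for 18.4% of all genes. Among the other mitochondrial lists described below, that library was highest for 43 of 78 ribosomal, 11 of 19 import and 8 of 14 tricarboxylic acid cycle genes. The counts were 20 of 42 assembly factors outside the pattern, 6 of 16 ubiquinone genes, 5 of 19 biogenesis regulators and 1 of 13 mitochondrially encoded genes. Cre_negative replicate 2 exceeded the mean of the other 2 Cre_negative libraries in 93 of the 95 genes, by a median of 0.24 on the log2 scale, where the median over all genes was 0. Summed over the 95 genes, the levels were 18635, 21527 and 18654 CPM in Cre_negative and 18802, 19229 and 18205 CPM in Cre_positive. The sums of Cre_negative replicates 1 and 3 thus lay inside the Cre_positive range, and replicate 2 lay above all others. With that library left out, 42 genes were below 0 and 53 above, the median was 0.02, and Cox6b2 and Cycs were still called. The medians by complex were then 0.00, 0.10, 0.01, 0.05 and 0.02 for complexes I to V. The majority below 0 rested on that library, whereas the calls of Cox6b2 and Cycs did not. Leaving out the library that is highest for most of these genes must raise their fold changes. Without Cre_negative replicates 1 and 3, 80 and 71 genes were below 0. Without Cre_positive replicates 1, 2 and 3, the counts were 69, 73 and 65.

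**Figure D2:**
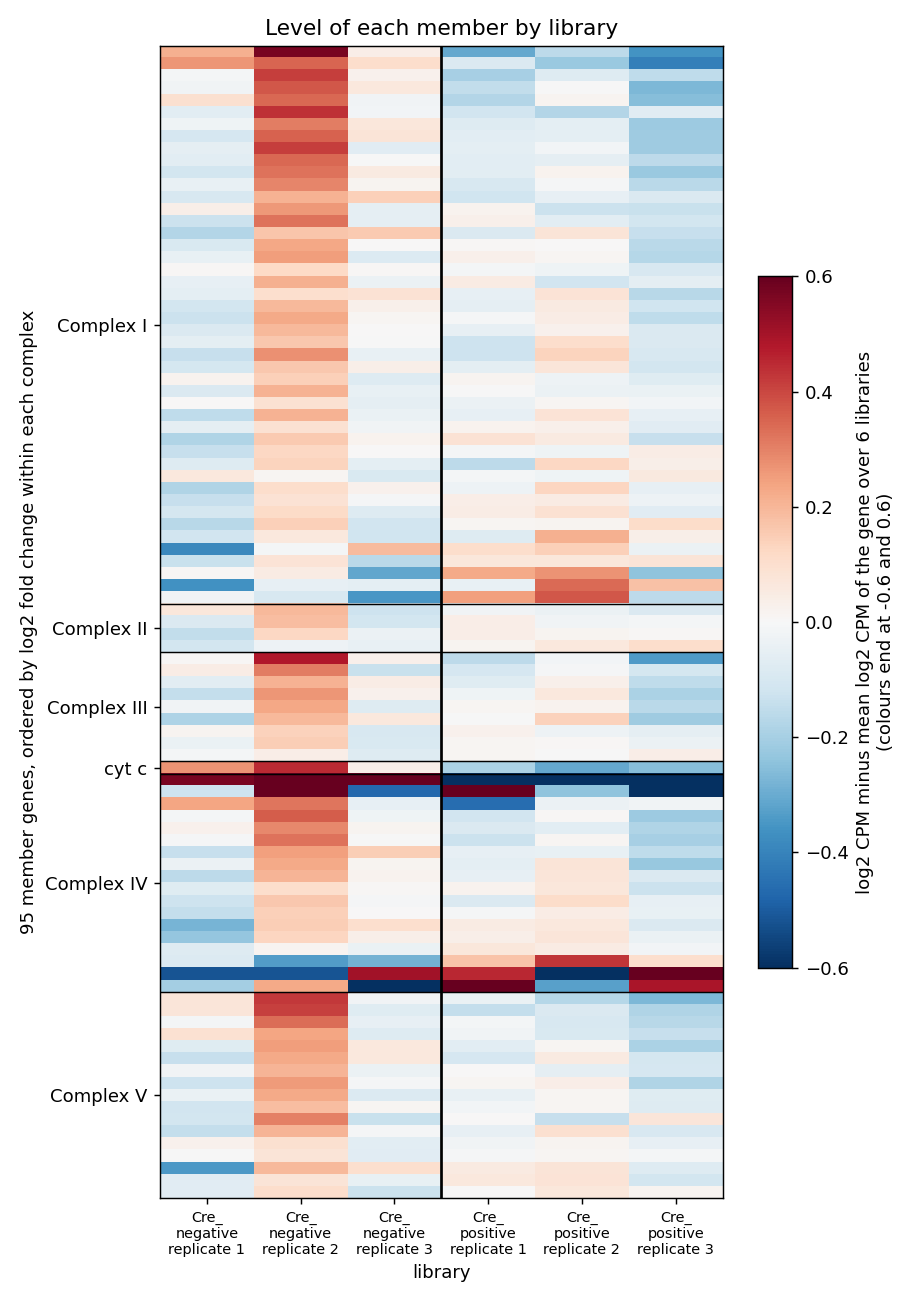
Log2 CPM of each gene minus its mean over the 6 libraries (colour), with the 95 genes as rows grouped by complex and the libraries as columns. The column of Cre_negative replicate 2 is raised in every complex, with 82 of 95 genes highest there.

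The sequence before the start of 4 genes is shown because it holds, or lacks, the short motifs that textbook regulators of respiratory genes bind. Cycs, Ndufb6 and Cox6b2 passed the test, and Sdha did not and had higher values in Cre_positive. Each stretch is the 250 bases before the RefSeq start on GRCm38.p6, written 5′ to 3′ on the gene's strand, which is the minus strand for all 4. Capitals mark a match to the NRF-1 letters GCGCANGC, the cyclic AMP response element TGACGTCA or the ETS (GABP) letters CCGGAAG, on either strand. Cycs lies at chr6:50566570-50566819, Ndufb6 at chr4:40279422-40279671, Cox6b2 at chr7:4753095-4753344 and Sdha at chr13:74350241-74350490.
Cycs: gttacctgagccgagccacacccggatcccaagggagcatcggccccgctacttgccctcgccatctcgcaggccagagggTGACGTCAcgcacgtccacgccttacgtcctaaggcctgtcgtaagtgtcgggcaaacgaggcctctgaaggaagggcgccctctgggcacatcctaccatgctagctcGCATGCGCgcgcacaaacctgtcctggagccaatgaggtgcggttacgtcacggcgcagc
Ndufb6: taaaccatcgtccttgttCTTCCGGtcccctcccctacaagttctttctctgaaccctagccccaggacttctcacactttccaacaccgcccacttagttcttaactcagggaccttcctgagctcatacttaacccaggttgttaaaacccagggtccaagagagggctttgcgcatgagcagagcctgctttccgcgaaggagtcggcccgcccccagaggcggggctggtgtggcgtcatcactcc
Cox6b2: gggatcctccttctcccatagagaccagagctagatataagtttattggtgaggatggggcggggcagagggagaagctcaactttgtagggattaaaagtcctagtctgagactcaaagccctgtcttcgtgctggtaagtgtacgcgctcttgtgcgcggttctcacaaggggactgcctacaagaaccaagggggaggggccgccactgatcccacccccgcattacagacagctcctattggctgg
Sdha: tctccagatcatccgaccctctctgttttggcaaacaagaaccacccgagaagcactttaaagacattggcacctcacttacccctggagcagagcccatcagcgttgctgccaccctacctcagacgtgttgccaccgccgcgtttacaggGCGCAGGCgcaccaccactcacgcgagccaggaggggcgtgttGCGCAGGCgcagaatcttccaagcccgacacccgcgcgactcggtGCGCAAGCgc
Cycs had 1 NRF-1 match and 1 cyclic AMP response element, Ndufb6 had 1 ETS match, Sdha had 3 NRF-1 matches, and the Cox6b2 stretch had no match to these or to the other letters searched. A match describes the letters only.

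RefSeq promoters were matched for 73 of the 95 genes, and the same 250 bases were searched in 27025 genes, on both strands. NRF-1 letters were found in 20 of the 73, or 27.4%, against 9.38% of all genes. ETS letters were found in 14 (19.2%, against 7.83%), the cyclic AMP response element in 5 (6.85%, against 1.77%), the YY1 letters AANATGGCG in 3 (4.11%, against 1.29%) and the ERR letters TCAAGGTCA in 1 (1.37%, against 0.422%). The stretches were richer in G and C, with a median of 57.6% against 52.4%, and the shares were not corrected for that. The median log2 fold change was -0.10 for the 20 genes with NRF-1 letters and -0.07 for the 53 without. The difference between these medians was not tested.

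Complex I, which oxidises NADH, had 1 call among 46 genes, Ndufb6. Ndufb6 was at 61.4, 78.6 and 54.4 CPM in Cre_negative and at 42.9, 47.5 and 41.3 CPM in Cre_positive. Every Cre_positive library lay below every Cre_negative library. The means were 64.8 ± 12.5 and 43.9 ± 3.20 CPM (SD, n = 3 each), a log2 fold change of -0.56 (SE 0.13, 95% interval -0.86 to -0.26, adjusted p = 0.0379 by edgeR). The call ended when Cre_negative replicate 1 (adjusted p = 0.0607 in edgeR) or 2 (0.0575), or any Cre_positive library (0.123, 0.0848 and 0.147), was left out. Smim27 overlaps 39.0% of its exon bases on the opposite strand but held 490 counts in all, against 18395 for Ndufb6.

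The other complex I subunits moved less. Of 36 subunits, 29 were below 0, and the median was -0.08. Over all 46 complex I genes, 33 were below 0 with all libraries and 22 without Cre_negative replicate 2. The 7 nuclear subunits of the catalytic core, which carry the flavin and iron-sulfur centres, had a median of -0.03, and none was called by edgeR or DESeq2, had an unadjusted p under 0.05 or stood apart between groups. Ndufs1, the largest subunit of the electron-input arm, was at 312, 301 and 280.3 CPM against 296, 293 and 311 CPM (log2 fold change 0.01, SE 0.074). The groups overlapped. The 29 accessory subunits had a median of -0.09, and the 10 Ndufb subunits of the membrane arm a median of -0.14, with 9 of 10 below 0. Cre_negative replicate 2 was the highest library for 9 of those 10.

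Among accessory subunits, Ndufb4, Ndufb8 and Ndufa11 had an unadjusted p under 0.05 without passing the adjusted threshold (log2 fold changes -0.30, -0.28 and -0.24, adjusted p = 0.161, 0.177 and 0.172 by edgeR). Ndufa12 leaned the other way, at 49.0, 46.6 and 39.0 CPM against 59.1, 64.4 and 44.7 CPM (log2 fold change 0.32, SE 0.14, adjusted p = 0.220 by edgeR), with overlap between the groups. Its value is uncertain, because the pseudogene Gm15920 matches it at 99.5% over 402 bases and held 41.2% as many counts. Gm15920 went down, from 1066, 2207 and 1857 counts to 426, 548 and 889 (log2 fold change -1.40, SE 0.39, adjusted p = 0.0957 by edgeR). Gene and copy together were at 74.9 ± 10.1 and 67.4 ± 6.42 CPM (SD, n = 3 each), so the mean sum was lower in Cre_positive where Ndufa12 alone was higher. The sums overlapped, at 66.6, 86.1 and 72.0 CPM against 67.1, 74.0 and 61.2 CPM, with the highest in Cre_negative replicate 2. The sources used here do not say how reads shared by gene and copy were assigned.

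The 8 complex I assembly factors, which build the complex without staying in it, had no call by edgeR, 1 with an unadjusted p under 0.05 and 1 call by DESeq2 (Ndufaf2). Their median was 0.05, with 5 above 0. Ndufaf2, an assembly chaperone related to Ndufa12, was at 9.47, 10.04 and 8.48 CPM against 7.43, 6.76 and 5.93 CPM. The groups did not overlap, and the log2 fold change was -0.48 (SE 0.16, adjusted p = 0.104 by edgeR and 0.04996 by DESeq2). It was the gene nearest outside the threshold, with no member between 0.05 and 0.1. Ndufaf8 was at 7.51, 9.34 and 9.28 CPM against 9.38, 12.2 and 10.9 CPM, the groups being separated by a narrow gap (log2 fold change 0.32, SE 0.16, adjusted p = 0.269 by edgeR).

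Complex II, succinate dehydrogenase, also serves the tricarboxylic acid cycle and is wholly nuclear encoded. None of its 4 genes was called by edgeR or DESeq2, and none had an unadjusted p under 0.05. Sdha, the flavoprotein subunit, was at 767, 808 and 800.4 CPM in Cre_negative and 837, 864 and 889 CPM in Cre_positive. All Cre_positive libraries were above all Cre_negative libraries, but the difference was small (log2 fold change 0.12, SE 0.077, 95% interval -0.05 to 0.30, adjusted p = 0.378 by edgeR). Sdhb, the iron-sulfur subunit, had means of 280.2 and 280.3 CPM. The membrane anchors Sdhc and Sdhd had log2 fold changes of 0.03 and -0.10.

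Complex III passes electrons from ubiquinol to cytochrome c, and 8 of its 9 genes were below 0 with a median of -0.09. Without Cre_negative replicate 2, 3 of the 9 were below 0. With all libraries, none of the 9 was called by edgeR or DESeq2, and 1 had an unadjusted p under 0.05. That gene was Uqcrq, a small subunit, at 98.1, 136 and 99.5 CPM against 87.4, 96.4 and 77.1 CPM. The groups did not overlap, and the log2 fold change was -0.36 (SE 0.14, adjusted p = 0.174 by edgeR). Cyc1, the cytochrome c1 haem subunit, was at 384, 461 and 339 CPM against 347, 371 and 346 CPM, with overlap (log2 fold change -0.15, SE 0.11). The core subunits Uqcrc1 and Uqcrc2 and the Rieske iron-sulfur protein Uqcrfs1 lay between -0.04 and 0.03.

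Cycs, the mobile carrier that also starts apoptosis when it leaves mitochondria, was at 256, 289.9 and 218 CPM in Cre_negative. It was at 187, 172 and 178 CPM in Cre_positive, so the groups did not overlap. Its mean was 70.3% of the Cre_negative mean (254.8 ± 35.9 and 179.1 ± 7.21 CPM, SD, n = 3 each), a log2 fold change of -0.51 (SE 0.10, 95% interval -0.75 to -0.27, adjusted p = 0.0223 by edgeR). The call held without each Cre_negative library (adjusted p = 0.0444, 0.0458 and 0.00489 in edgeR) and ended without any Cre_positive library (0.0675, 0.0995 and 0.1005). Processed copies of Cycs are nearly identical to it. Of 4 such copies, 3 held counts, together 19.3% as many as Cycs. The copy with most counts, Gm10053, matches Cycs at 99.9% over 946 bases and fell alongside it (log2 fold change -0.52, SE 0.11, adjusted p = 0.0281 by edgeR). Cycs and its copies summed to 303.9 ± 42.3 and 213.7 ± 8.41 CPM (SD, n = 3 each), which is the same 70.3%. How reads shared by Cycs and its copies were assigned is not stated, so their values may not be independent.

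**Figure D3:**
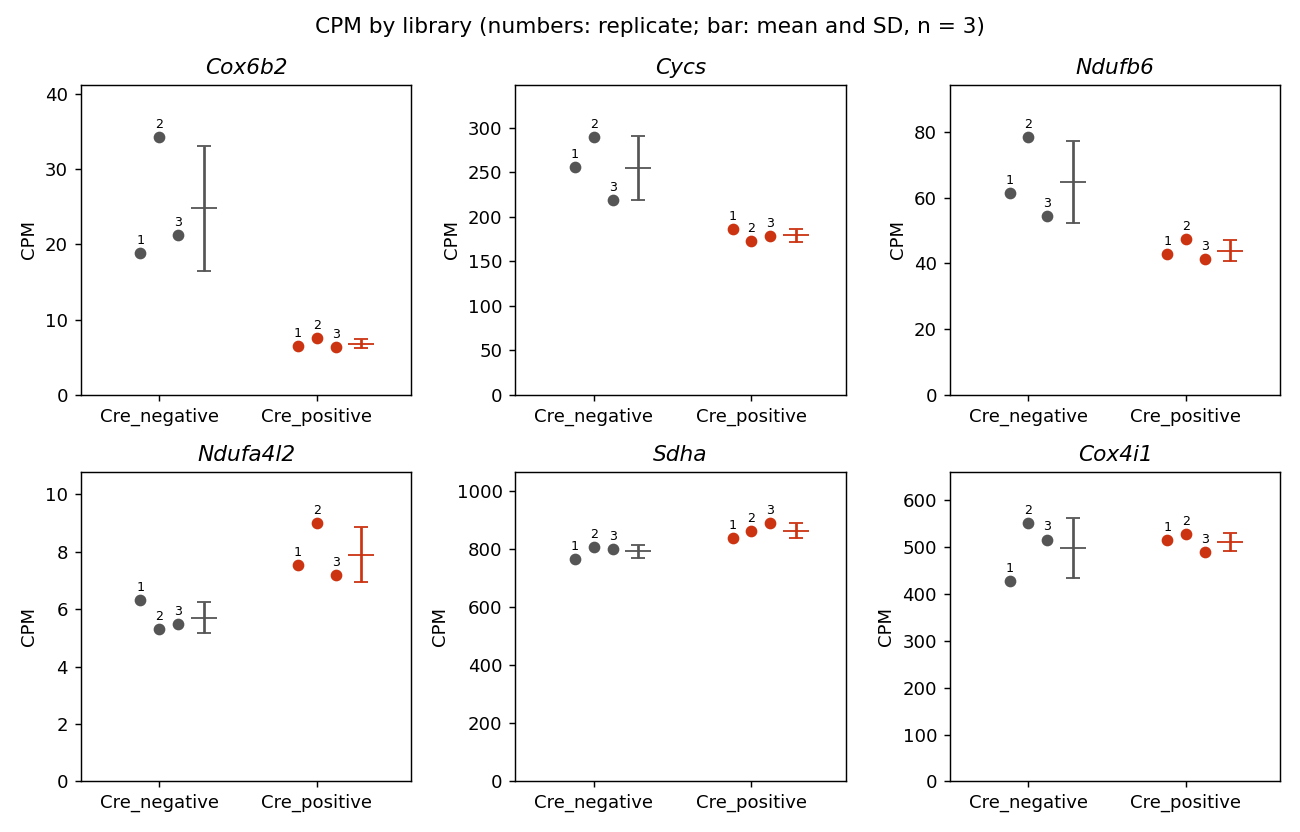
CPM (y axes, from 0) in each library for Cox6b2, Cycs, Ndufb6, Ndufa4l2, Sdha and Cox4i1, with points numbered by replicate and bars giving the mean and SD of 3 libraries. The genotypes are separate in the first 5 panels and overlap for Cox4i1, and Cre_negative replicate 2 is highest of its group in all panels but that of Ndufa4l2.

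Complex IV, cytochrome c oxidase, has several subunits with alternative isoforms, and the clearest difference lay in an isoform. Cox6b2 was at 18.9, 34.3 and 21.2 CPM in Cre_negative and at 6.49, 7.51 and 6.37 CPM in Cre_positive. The lowest Cre_negative library was above the highest Cre_positive library by a wide margin. The means were 24.8 ± 8.33 and 6.79 ± 0.628 CPM (SD, n = 3 each), a log2 fold change of -1.87 (SE 0.22, 95% interval -2.38 to -1.35, adjusted p = 0.00317 by edgeR). It was the 1 gene of the 95 that changed at least 2-fold. It was called under all 14 other settings, with log2 fold changes from -2.03 to -1.56 and adjusted p of at most 0.0285.

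Its widely expressed partner, Cox6b1, was at 203, 243 and 201 CPM against 187, 191 and 175 CPM. The groups did not overlap, and the log2 fold change was -0.23 (SE 0.090, adjusted p = 0.174 by edgeR). Per kilobase of exons, the mean level of Cox6b1 was 305 and 261 CPM, and that of Cox6b2 was 22.4 and 6.13 CPM, so the lower isoform was the minor transcript in both genotypes.

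The other isoforms were scarce and none was called by edgeR or DESeq2, with 1 (Ndufa4l2) at an unadjusted p under 0.05. Ndufa4l2, a hypoxia-induced relative of the subunit Ndufa4, was at 6.32, 5.30 and 5.49 CPM against 7.52, 8.99 and 7.17 CPM. The groups did not overlap, with the higher values in Cre_positive (log2 fold change 0.47, SE 0.17, adjusted p = 0.134 by edgeR). Ndufa4 had a log2 fold change of -0.02 (SE 0.093). Cox4i2, an oxygen-responsive isoform known from lung, was at 0.955, 1.29 and 0.622 CPM against 1.71, 0.878 and 1.55 CPM, with overlap and a wide interval (log2 fold change 0.53, 95% interval -0.36 to 1.41). Its partner Cox4i1 was at 428, 551 and 516 CPM against 515, 528 and 489.8 CPM (log2 fold change 0.04, SE 0.10). The muscle isoforms Cox6a2 and Cox7a1 had log2 fold changes of 0.53 (SE 0.59) and -0.33 (SE 0.21), and their partners Cox6a1 and Cox7a2 of -0.05 and -0.23. The intervals of Cox4i2 and Cox6a2 (-0.81 to 1.86) did not exclude a rise of more than 2-fold.

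The 11 complex IV subunits outside the isoforms had no call by edgeR or DESeq2, 1 (Cox6b1) with an unadjusted p under 0.05, and a median of -0.05. Cox8a was at 280.3, 366 and 342 CPM against 298, 299 and 278 CPM (log2 fold change -0.18, SE 0.10), and Cox7b had a log2 fold change of -0.01. Cox7a2l, which helps join complexes III and IV into supercomplexes, was at 129, 137 and 132 CPM against 142, 140.3 and 134 CPM (log2 fold change 0.07, SE 0.064). The groups overlapped for each of these 3 genes. Cox7b2 and Cox8c had no counts.

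Complex V, the ATP synthase, had no call by edgeR among 17 genes, 2 with an unadjusted p under 0.05, and 1 call by DESeq2. Its head, F1, holds the catalytic beta subunit Atp5b and the alpha subunit Atp5a1. Atp5a1 was at 2252, 2383 and 2152 CPM against 2247, 2279.6 and 2241 CPM (log2 fold change -0.00, SE 0.085). Per kilobase of exons, Atp5a1 and Atp5b stood at 722 and 615 CPM in Cre_negative, and next came the complex IV genes Cox6a1 (565) and Cox8a (532). The exons were joined over transcripts, to 3135, 4237, 702 and 619 bases in that order, so the ranking depends on the annotation. Before division by length, Atp5b held more counts than Atp5a1 in every library. The 5 F1 genes had a median of -0.04, and 14 of the 17 complex V genes were below 0 with a median of -0.08. Without Cre_negative replicate 2, 8 of the 17 were below 0.

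The membrane ring of complex V is built from identical proteins encoded by 3 genes. Atp5g1 was at 220.5, 281 and 207 CPM against 203, 186 and 174 CPM. The groups were just apart, and the log2 fold change was -0.33 (SE 0.12), with an adjusted p of 0.142 by edgeR and 0.0430 by DESeq2. Atp5g2 and Atp5g3 had log2 fold changes of 0.06 (SE 0.077) and -0.08 (SE 0.097), with overlap. The differences between the 3 genes were not tested. The pseudogene Gm10039 matches Atp5g1 at 99.8% over 411 bases and held 25.1% as many counts. Summed with it, Atp5g1 was at 291.8 ± 47.9 and 238.2 ± 21.0 CPM (SD, n = 3 each). Atp5o, of the stalk that holds the head, was at 314, 398 and 285 CPM against 271, 282 and 264 CPM, the groups being just apart (log2 fold change -0.29, SE 0.12, adjusted p = 0.189 by edgeR).

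Of the 13 mitochondrially encoded partners of these proteins, 11 had log2 fold changes above 0, and the median was 0.18. None was called by edgeR, 6 were higher at an unadjusted p under 0.05 (23.5% of all genes in either direction), and DESeq2 called 5 and limma voom 1, all higher. Leaving out Cre_negative replicate 3 gave 4 calls in edgeR. Without Cre_negative replicate 2, 11 of the 13 stayed above 0 (median 0.22), and of the 95 nuclear genes 53 were above 0. The groups did not overlap for 8 of the 13, against 29.7% of all genes, of which 7 were higher, against 15.2%, and mt-Nd1 was lower. The smallest p belonged to mt-Nd4l, a membrane subunit of complex I, at 718, 665 and 822 CPM against 1022, 864 and 979.8 CPM (log2 fold change 0.38, SE 0.11, adjusted p = 0.0681 by edgeR). Summed over the 13 mitochondrial genes, the levels were 80453, 89032 and 93637 CPM in Cre_negative. In Cre_positive the sums were 100813, 95568 and 100377 CPM, without overlap. Divided by the sum of the 95 nuclear genes, they were 4.32, 4.14 and 5.02 in Cre_negative and 5.36, 4.97 and 5.51 in Cre_positive. These ratios overlapped. Nuclear copies of mitochondrial genes were not analysed here.

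**Figure D4:**
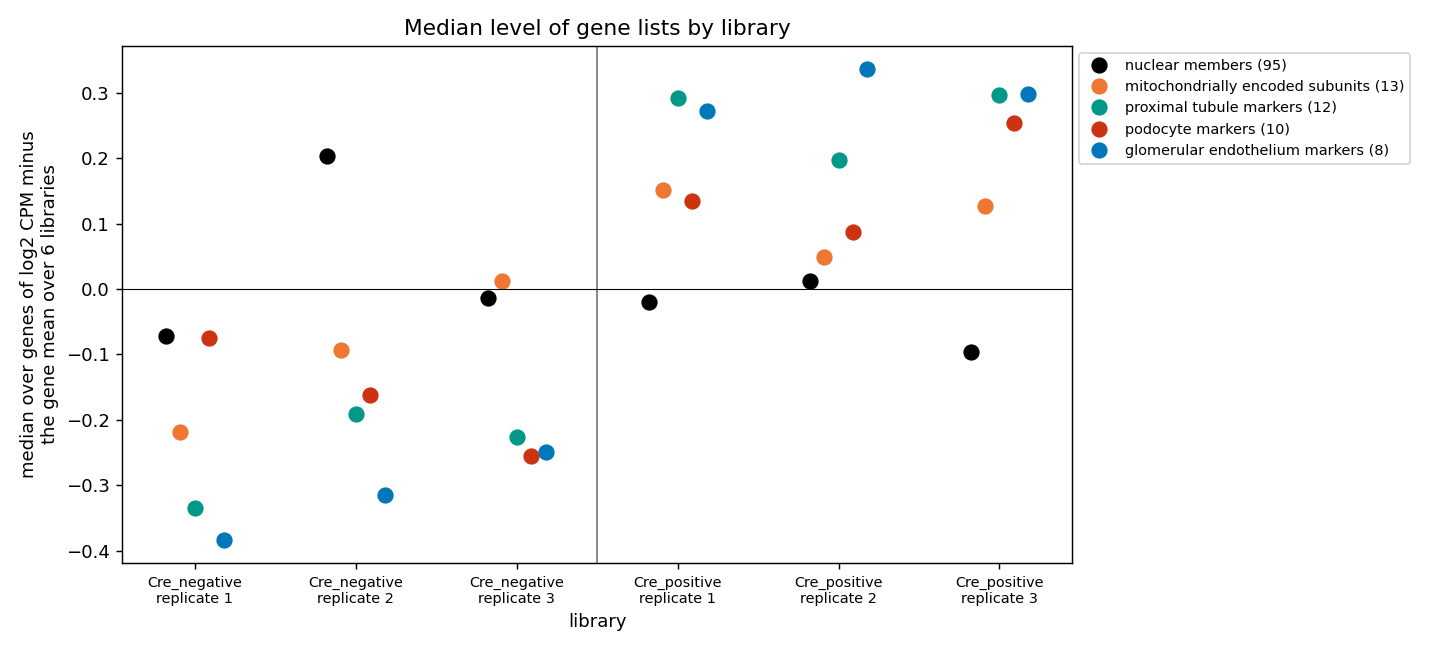
Median over the genes of each list of log2 CPM minus the gene's mean over 6 libraries (y axis), by library (x axis, points offset sideways for legibility). The 95 nuclear genes are highest in Cre_negative replicate 2 at 0.20. The mitochondrially encoded genes and the proximal tubule, podocyte and endothelial markers are higher in every Cre_positive library than in every Cre_negative library.

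Other mitochondrial genes showed scattered calls, to be read against the 7.55% called and the 23.5% at an unadjusted p under 0.05 among all genes. The share called was 0% for assembly factors and for biogenesis regulators, 2.56% for ribosomal genes, 7.14% for tricarboxylic acid cycle enzymes, 10.5% for import genes and 12.5% for ubiquinone genes. Among 42 assembly factors outside the symbol pattern there was no call by edgeR, and 6 had an unadjusted p under 0.05. Sdhaf1, a complex II factor, came nearest (log2 fold change -0.42, adjusted p = 0.0588 by edgeR). DESeq2 and limma voom called 1 assembly factor each. With a filter at 1 CPM, or without Cre_negative replicate 1 or 3, edgeR called 1 lower. Among 16 genes for ubiquinone synthesis and electron transfer flavoprotein, Coq8a, an atypical kinase needed for ubiquinone synthesis, rose from 149, 149 and 169.7 CPM to 253, 241 and 231 CPM (log2 fold change 0.63, adjusted p = 0.00318 by edgeR). In the same list the methyltransferase gene Coq3 fell (log2 fold change -0.49, adjusted p = 0.0257 by edgeR). Among 14 tricarboxylic acid cycle enzymes, Idh2, the NADP-dependent isocitrate dehydrogenase, rose (log2 fold change 0.55, adjusted p = 0.0120 by edgeR), and DESeq2 called 2 others lower. That list's median was -0.10, but -0.03 without Cre_negative replicate 2 and -0.17 without Cre_negative replicate 3.

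The import genes Timm17a and Tomm20 fell among 19 genes of the outer membrane and import (log2 fold changes -0.35 and -0.30, adjusted p = 0.0192 and 0.0397 by edgeR). The ribosomal genes Mrpl33 and Mrps18b fell among 78 mitochondrial ribosomal genes (-0.87 and -0.58, adjusted p = 0.00181 and 0.0187 by edgeR). Of the 7 calls in these lists, Coq8a and Mrpl33 held with each library left out in turn. Coq3, Idh2, Timm17a, Tomm20 and Mrps18b each lost the call without any Cre_positive library, and all of these but Idh2 also without Cre_negative replicate 2. Tomm20 lost it without Cre_negative replicate 1 as well. The adjusted p without the library was then between 0.0510 and 0.149 in edgeR. The 19 transcription and biogenesis regulators had no call by edgeR or limma voom and 1 by DESeq2. With a filter at 1 CPM or a block for replicate number, edgeR called 1 higher. At an unadjusted p under 0.05 there were 2. Of these, Ppargc1a, the coactivator of mitochondrial biogenesis, was at 80.9, 76.5 and 77.1 CPM against 98.1, 93.1 and 88.7 CPM, without overlap (log2 fold change 0.26, SE 0.068, adjusted p = 0.0562 by edgeR).

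Markers of the cells in these samples differed between genotypes, and their part in the values above was not tested. Of all genes, 3.73% were called higher and 3.82% lower. Of 12 proximal tubule markers, 5 were called higher by edgeR, and their summed level was 10340.1 to 11795 CPM in Cre_negative and 15016 to 16192 CPM in Cre_positive. Of 11 markers of the thick ascending limb, distal tubule and collecting duct, 6 rose, with sums of 6250.3 to 7658 CPM and 9937 to 10526 CPM. Podocyte markers summed to 583 to 662 CPM and 799.7 to 898 CPM with 3 of 10 called higher, and glomerular endothelial markers to 571 to 677 CPM and 874 to 959 CPM with 7 of 8 called higher. Mesangial and smooth muscle markers summed to 342 to 447 CPM and 499.8 to 532 CPM with 3 of 8 called higher. Macrophage markers summed to 184 to 335 CPM and 169 to 184 CPM with 2 of 8 called lower by edgeR and 5 by DESeq2. Every marker had counts. Some of these counts changed when 1 library was left out, as did the calls over all genes. Those were 1505 with all libraries and 700, 605 and 462 without Cre_positive replicates 1, 2 and 3. Leaving out Cre_positive replicate 3 left 2 proximal tubule, 3 distal and 1 podocyte marker called higher, and leaving out Cre_positive replicate 2 left 1 podocyte marker. Without Cre_positive replicate 3, the median log2 fold changes of the proximal tubule, distal and podocyte lists were 0.53, 0.52 and 0.24. With all libraries they were 0.53, 0.48 and 0.29. The distal count was also 3 without Cre_negative replicate 2 or Cre_positive replicate 1. No macrophage marker was called by edgeR without any 1 Cre_positive library, and 4 were called without Cre_negative replicate 2. The macrophage median of -0.90 was -0.59 without Cre_negative replicate 1. DESeq2 and limma voom each called 1 proximal tubule marker lower, as did edgeR with robust=FALSE and with a filter at 1 CPM. Without Cre_negative replicate 2 edgeR called 2 lower, and without Cre_negative replicate 3 it called 1 lower.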

How the data were processed

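RNA was measured in 6 libraries, 3 per genotype. The authors deposited whole-number counts for each Ensembl gene, in a single table of the 6 samples. Per the submitters' processing notes, fastp, HISAT2, StringTie, edgeR and the build GRCm39 were named, without roles or order. The sources used here do not state the strand setting or how multiply matching reads were counted. Such reads can move counts between a gene and its near-identical copies.

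The counts were used as deposited in R 4.3.3. Genes were kept with filterByExpr, scaled with TMM and tested with edgeR 4.0.16 (quasi-likelihood, robust=TRUE, Benjamini-Hochberg threshold 0.05) over all 19927 genes kept. The common dispersion had a square root of 21.5%. A standard error is the log2 fold change over the square root of F. Every pair of libraries differed by more than sampling noise (chi-square per degree of freedom at least 20.6). The procedure was tested on simulated data.

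Symbols covered 51880 of 57132 rows. GENCODE M21, whose build GRCm38 differs from that in the notes, gave only lengths (exons joined over transcripts), chromosomes, gene types, copies (at least 95% identity over at least 150 bases) and overlaps. Of 92 genes with a transcript, 25 had a copy, whose counts exceeded 10% of the gene's own for 6 (Ndufaf7, Ndufa12, Ndufb4, Atp5g1, Cycs and Atp5l). For Ndufaf7 the matches are short stretches in unrelated genes. RefSeq sequences on GRCm38.p6 were printed.

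The members and lists were chosen with earlier results of these data known. The rule named every gene past the threshold, the smallest p in a complex with none, Cycs, Setdb2, the complex IV isoforms with their partners, and up to 4 called genes per list. Other genes named were chosen after their values were seen, as were the promoter motifs. Alternatives were DESeq2 1.42.0, limma 3.58.1 voom, other scalings and filters, a replicate block, subunits only, and each library left out. Some genes that the rule takes are left out of the text.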

Additional observations from a re-analysis of the deposited data

How the results depend on the processing

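Cox6b2, Cycs and Ndufb6 were the 3 calls with DESeq2 size factors or upper-quartile factors in edgeR, limma voom, robust=FALSE, no filter, a 1 CPM filter and the replicate block. DESeq2 called 5 genes lower, adding Atp5g1 and Ndufaf2, and 2568 of all genes against 1505 with edgeR, over more genes. Among the 81 subunits and isoforms, with Cycs, the 9 assembly factors, the 3 gene copies and Atp5s left out, 2 were called and the median was -0.08. With 1 library left out, 1 to 3 genes were called lower, 0 higher, and 462 to 2039 among all genes, and the median log2 fold change ran from -0.13 to 0.02. With a replicate block the calls were 3 lower and 1541 over all genes, and the median was -0.07. The block changed no call among the 95 genes. Same-numbered libraries correlated in their deviations at 0.136, 0.114 and 0.0568, so not every pair passed 0.1 and the samples share only a number. The first 2 pairs correlated best with their own number, and Cre_negative replicate 3 was as close to Cre_positive replicate 2 (0.0569). The 3 libraries per genotype limit precision, and genes near 1 CPM had wide intervals.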

Other observations

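Of the 5 genes that matched the symbol pattern below the count minimum, Cox8b, the heart and skeletal muscle isoform of the smallest complex IV subunit, had 19, 8 and 6 counts in the Cre_negative libraries and 0, 0 and 0 in the Cre_positive libraries. Ndufa11b had 9 counts in Cre_negative replicate 1 and 0 elsewhere, and the other 3 had 0 counts in all libraries. Among the 9 rows with a -ps symbol, 5 passed the minimum. Of these, Ndufb1-ps, whose annotated type is a non-coding RNA and not a pseudogene, was at 531, 531 and 586 counts against 536, 596 and 491 (log2 fold change 0.05, SE 0.14).

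Across 92 genes with a transcript, Spearman's rho was 0.169 between transcript length and log2 fold change and -0.179 between transcript length and the deviation of Cre_negative replicate 2. These are descriptions across genes that share the same libraries, and genes are not independent replicates.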
